A study of Macaca mulatta with 27 samples.

Results

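RNA-seq libraries of rhesus cells cultured with the LCDM (EPS) or t2iLGöY protocol were set against libraries of cells cultured with TL2i, 4i/L/b, or NHSM-v. There were 3 libraries per protocol, so 6 stood on one side and 9 on the other, and 15 of the 27 libraries of the series were used. The sides were selected on measured values, the levels of mesenchymal genes in these same libraries. The contrast was the mean of the LCDM (EPS) and t2iLGöY means minus the mean of the other 3 protocol means, on the log2 scale. Of 14233 genes tested, 1821 passed in the same direction in all 6 pairs of 1 protocol from each side, and these agreeing genes are described here. Because the libraries that set the sides also gave these values, differences between the sides are descriptions, with a standard error (SE) and no p-value. The SE was worked back from the test statistic of the fit.

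The rhesus cells of these libraries came from 1 clone, LyonES-tGFP-(S3). It derives from LyonES, a rhesus embryonic stem cell (ESC) line, and carries a tau-GFP reporter under the CAG promoter and a lentiviral STAT3-ERT2, a form of STAT3 that tamoxifen activates. TL2i cells were kept in tamoxifen, LIF, and inhibitors of MEK and GSK3β. The other 4 protocols were applied without tamoxifen, which leaves STAT3-ERT2 inactive, and each has its own mixture of cytokines and inhibitors. LCDM (EPS) combines LIF, the GSK3 inhibitor CHIR, dimethindene, and minocycline, whereas t2iLGöY combines titrated MEK and GSK3 inhibitors, LIF, the PKC inhibitor Gö, and the ROCK inhibitor Y. Primed cells, the 6 libraries of unconverted cells, were used only as a reference. The single components cannot be told apart, since the protocols differ in several at once.

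Neurogenesis runs from dividing neural progenitors, held by SOX factors, PAX6, and Notch signals, through proneural factors such as NEUROG2, to young neurons with DCX, TUBB3, and ELAVL4. Proneural factors induce the Notch ligand DLL1, which signals to neighboring cells and there raises HES repressors, and DLL3, which inhibits Notch within its own cell. In adherent cells under tension, YAP with TEAD factors and SRF with its cofactors drive CYR61, CTGF, ANKRD1, and the contractile genes ACTA2, TAGLN, and CNN1. Fibroblasts and other mesenchymal cells secrete fibronectin and collagens I, III, and VI. MEK and ERK signaling induces its own inhibitors of the DUSP and SPRY families together with FOSL1 and EPHA2.

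Total counts ranged from 12827393 to 20046414 in the 6 libraries and from 8375416 to 19482749 in the 9 libraries, and between 13407 and 15700 genes had a count. Values are counts scaled to the library total after TMM adjustment (CPM), and fold changes come from 1 edgeR fit of the 15 libraries. A gene was called in a pair at a Benjamini-Hochberg adjusted p under 0.05. The floor, 3 counts in a library, corresponded to 0.138 to 0.422 CPM. Same-protocol libraries differed beyond sampling noise in all 15 pairs, by a chi-square of 3.98 to 21.9 per gene, and none was counted as a repeat of another. Nothing in the labels says that they were separate cultures, so the spread may be technical.

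The label of all 15 libraries, naive cells from ESCs, was set against POU5F1 and NANOG, which define pluripotency and have pseudogenes that may share their reads. POU5F1 lay at 0.0721 to 7.67 CPM in the 15 libraries and at 1127 to 1277 CPM in the primed libraries. NANOG lay at 0 to 0.537 CPM against 105 to 156 CPM in primed cells. In the same way, several defining mesenchymal genes did not separate the sides. VIM, the intermediate filament of mesenchymal and neural progenitor cells, had a lowest, median, and highest value of 2038, 2630, and 3254 CPM in LCDM (EPS) and t2iLGöY and of 1536, 2904, and 3973 CPM on the other side. ZEB1, a repressor of epithelial genes, had 182, 229, and 320 CPM against 77.6, 217, and 268 CPM. SNAI2, another such repressor, was at 0.903 to 3.92 CPM in LCDM (EPS) but at 52.8 to 98.6 CPM in t2iLGöY, within or above the 31.2 to 79.3 CPM of the other side. The epithelial genes CDH1 and EPCAM were low on both sides outside TL2i, at no more than 3.08 and 13.0 CPM, and reached 36.6 and 69.2 CPM in TL2i. The summed CPM of the mesenchymal list was 5419 to 6230.2 in LCDM (EPS), 12632 to 13587 in t2iLGöY, and 13079 to 37546 on the other side. The t2iLGöY range thus overlapped that of the other side, at its lowest library, TL2i replicate 1. For this reason the sides are called by their protocols. The lists below give which of their members were higher in TL2i, 4i/L/b, and NHSM-v.

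In the contrast itself, 4203 genes were higher in LCDM (EPS) and t2iLGöY (29.5% of genes tested) and 4218 were lower (29.6%), with a median over all genes of -0.01. The single pairs called comparable shares. Against TL2i, 25.1% of genes were higher and 26.7% lower in LCDM (EPS), and 24.0% were higher and 28.1% lower in t2iLGöY. Against 4i/L/b, the shares were 24.8% and 25.3% for LCDM (EPS), and 21.5% and 24.4% for t2iLGöY. Against NHSM-v, they were 30.0% and 26.8% for LCDM (EPS), and 25.4% and 26.4% for t2iLGöY. Agreement in all 6 pairs left 873 higher genes (6.13% of genes tested) and 948 lower genes (6.66%). Of these, 805 and 866 had no overlap in CPM between the 6 and the 9 libraries. The agreement rule itself favors such genes, and the share without overlap over all genes is not given, so these counts add no support. The median contrast was 1.17 among the higher and -1.43 among the lower genes, and the pair with the smallest difference, called the weakest pair, had a median of 0.66 and -0.77. A weakest pair of at least 1 was reached by 302 higher and 361 lower genes, and one of at least 2 by 116 and 151. The gene just inside the rule by its largest adjusted p was ERI2, an exonuclease, at 34.9 to 45.8 CPM against 23.0 to 35.8 CPM, and the gene just outside was DDOST, an oligosaccharyltransferase subunit, at 233 to 316 CPM against 315 to 409 CPM. Agreement of ERI2 was lost without LCDM (EPS) replicate 2 or 3, t2iLGöY replicate 3, TL2i replicate 1 or 3, or 4i/L/b replicate 1 or 3 (weakest pair 0.21 to 0.39). These are bulk libraries, so fewer cells of a type and less RNA per cell cannot be told apart.

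**Figure D1:**
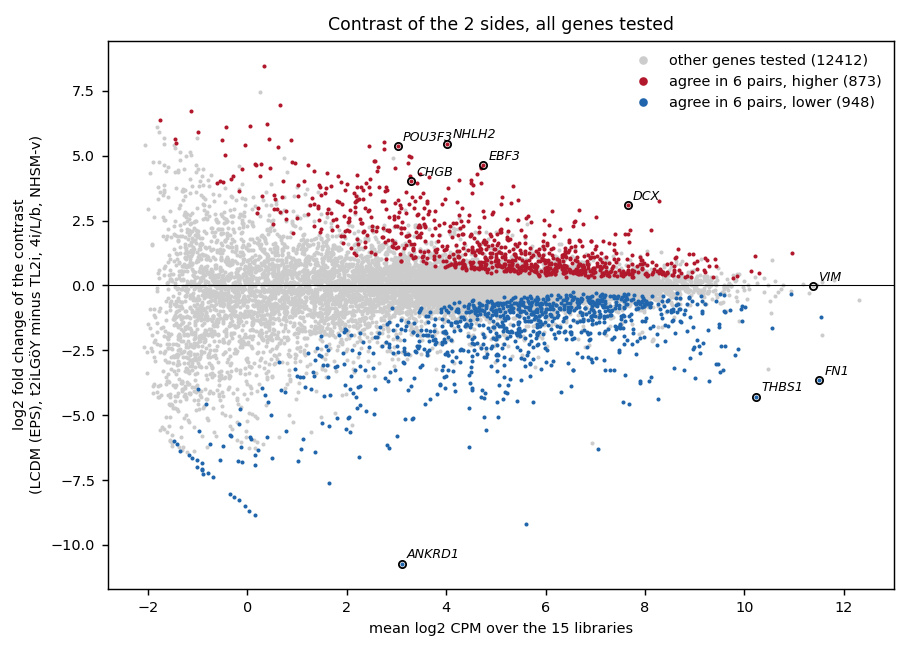
Contrast of LCDM (EPS) and t2iLGöY minus TL2i, 4i/L/b, and NHSM-v (log2 fold change, vertical axis) against the mean log2 CPM over the 15 libraries (horizontal axis), 1 point per gene tested; the 873 agreeing higher genes are red, the 948 agreeing lower genes blue, and the other genes gray. Agreeing genes occur at all levels, EBF3 and NHLH2 are high above the middle line, THBS1 and FN1 are low at high expression, and VIM lies on the line; fitted values of genes with counts near 0 on one side, such as ANKRD1, depend on the prior count.

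The leading higher genes were chosen by the largest weakest pair among agreeing genes without overlap, and 11 are described here. Their separation in CPM thus follows from the choice. EBF3, a transcription factor of early neurons, had a lowest, median, and highest value of 141, 195, and 222 CPM in LCDM (EPS) and t2iLGöY and of 4.30, 7.25, and 14.1 CPM on the other side (log2 contrast 4.63 ± 0.11, SE). NHLH2, a basic helix-loop-helix factor of young neurons, had 91.1, 166, and 249 CPM against 1.72, 3.13, and 9.99 CPM (5.45 ± 0.12). In both genes every library of one side stood apart from every library of the other, and the weakest pair was t2iLGöY against NHSM-v. CHGB, a protein of secretory granules, had 37.2, 52.6, and 60.9 CPM against 2.34, 2.98, and 4.73 CPM (4.02 ± 0.13). SCG3, another granule protein, had 98.7, 149, and 177 CPM against 3.36, 9.24, and 14.7 CPM (3.94 ± 0.15).

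POU3F3, a POU factor of neural progenitors, differed as much within its side as many genes did between sides. Its libraries held 246, 223, and 251 CPM in LCDM (EPS) and 15.3, 29.5, and 24.8 CPM in t2iLGöY, and the 9 other libraries held between 1.12 and 3.56 CPM (contrast 5.37 ± 0.16). ELAVL4, a neuronal RNA-binding protein, had 81.6, 123, and 169 CPM against 5.41, 7.36, and 9.88 CPM (4.07 ± 0.11). NCAN, a proteoglycan of the brain matrix, had 98.7, 186, and 294 CPM against 4.25, 8.72, and 9.99 CPM (4.53 ± 0.10). These genes were highest in LCDM (EPS), intermediate in t2iLGöY, and low in the other 3 protocols. ADCYAP1R1, the receptor of the neuropeptide PACAP, had 46.1, 72.5, and 88.4 CPM against 1.06, 3.38, and 6.55 CPM (4.28 ± 0.18). SCRT1, a neural zinc-finger repressor, had 33.1, 78.7, and 131 CPM against 1.16, 2.73, and 5.203 CPM (4.70 ± 0.13). Again no library of one side reached the range of the other. GNAO1, a G-protein subunit abundant in neurons, had 32.2, 39.9, and 52.7 CPM against 2.42, 3.69, and 5.32 CPM (3.40 ± 0.15). LMO3, a LIM-only factor, had 32.1, 55.5, and 109 CPM against 2.05, 3.45, and 5.69 CPM (3.94 ± 0.14), and of the 11 it was the one with higher values in t2iLGöY, at 72.2 to 109 CPM, than in LCDM (EPS), at 32.1 to 38.7 CPM.

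**Figure D2:**
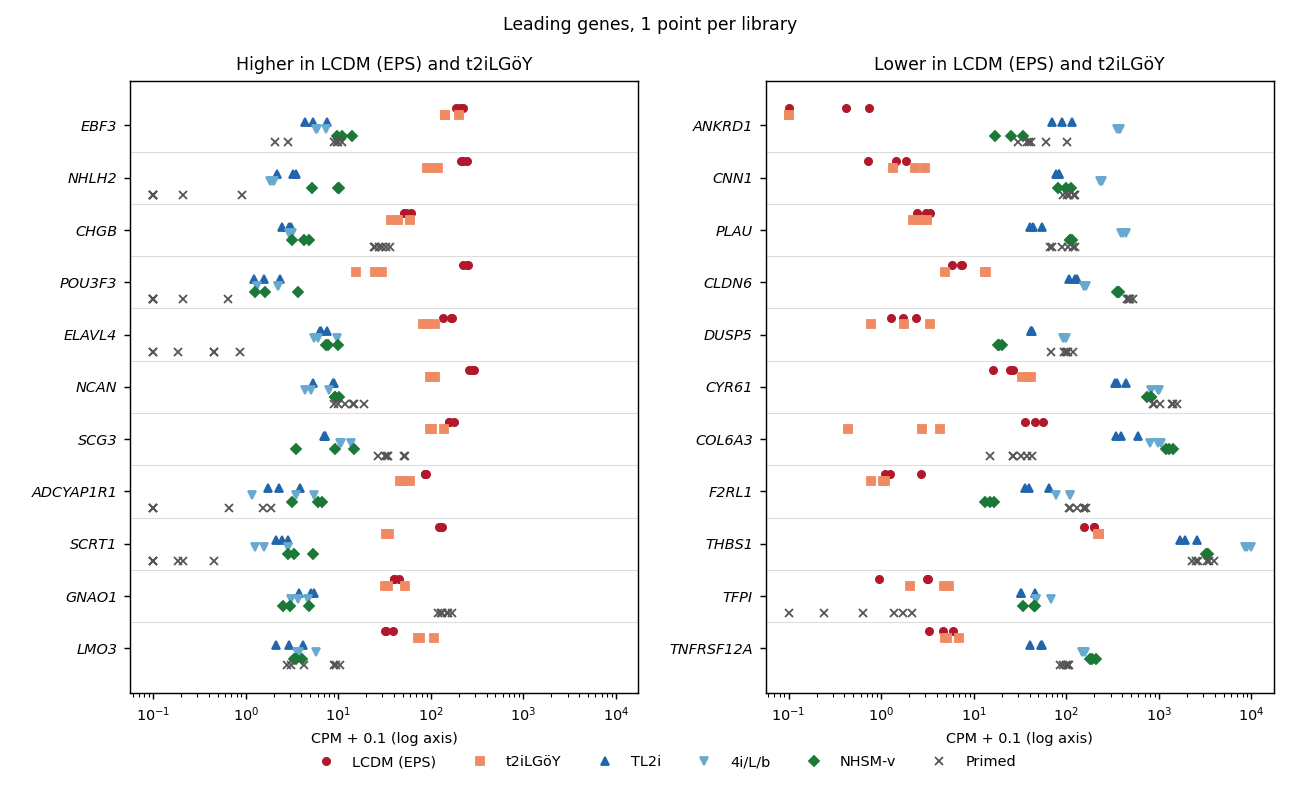
Level (CPM + 0.1, log axis) of 11 leading higher genes (left) and 11 leading lower genes (right), with 1 point per library for the 5 protocols and for primed cells. In each row the LCDM (EPS) and t2iLGöY points lie apart from those of TL2i, 4i/L/b, and NHSM-v, by the choice of these genes; primed libraries lie near 0 for NHLH2, POU3F3, ELAVL4, and SCRT1, and above all 15 libraries for GNAO1.

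Of the 28 genes of the neuronal list, 21 agreed as higher (75% against 6.13% of all genes) and 0 as lower, with a median contrast of 2.93, or 2.86 with genes at the floor set to their bound. The list holds proneural factors, neuronal transcription factors, and structural and synaptic genes, and members of each class agreed. Among structural genes, DCX, a microtubule protein of migrating neurons, had 601, 719, and 890 CPM against 62.1, 88.6, and 105 CPM (3.09 ± 0.06). TUBB3, neuronal tubulin, had 663, 682, and 705 CPM against 81.0, 145, and 322 CPM (2.15 ± 0.05). SNAP25, a synaptic vesicle fusion protein, had 15.3, 30.1, and 48.4 CPM against 3.26, 4.94, and 9.11 CPM (2.33 ± 0.13). DCX and TUBB3 were thus also expressed in all 9 libraries of the other side, only at lower levels. Among proneural factors, NEUROG2 had 11.6, 20.7, and 27.8 CPM against 0, 0.917, and 5.68 CPM (3.98 ± 0.28). EBF2, a relative of EBF3, had 22.4, 49.2, and 66.6 CPM against 0.290, 1.32, and 4.82 CPM (4.79 ± 0.18). Outside the comparison EBF2 was at 57.5 to 60.7 CPM in E-NHSM and at no more than 6.75 CPM in primed cells. POU4F1, a factor of sensory neurons, was at 36.1 to 44.0 CPM in LCDM (EPS), 121 to 151 CPM in t2iLGöY, and 0.879 to 9.15 CPM on the other side (4.98 ± 0.13). ISL1, a factor of motor and sensory neurons, did not agree and was near the other side in LCDM (EPS), at 0.877 to 1.78 CPM, but at 9.51 to 14.6 CPM in t2iLGöY.

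The 24 neural progenitor genes held 10 that agreed as higher (41.7% against 6.13% of all genes) and 0 as lower. The median contrast was 1.09. HES5, a Notch-induced repressor of neurogenesis, was at 15.9 to 21.3 CPM in LCDM (EPS) and 3.17 to 6.76 CPM in t2iLGöY. All TL2i and 4i/L/b libraries were at the floor, so HES5 was at least 106-fold higher in LCDM (EPS) and 26.1-fold higher in t2iLGöY than in TL2i. PAX6, a regulator of the neuroectoderm and the eye, was at 53.4 to 75.4 CPM in LCDM (EPS), 125 to 190.1 CPM in t2iLGöY, 20.6 to 26.8 CPM in NHSM-v, and 3.87 to 6.07 CPM in TL2i and 4i/L/b (3.56 ± 0.11). NR2F2, an orphan nuclear receptor, had 329, 422, and 484 CPM against 82.6, 146, and 171 CPM (1.69 ± 0.05). SOX3 had 10.8, 21.6, and 29.8 CPM against 0, 0.774, and 4.37 CPM (4.23 ± 0.24), and POU3F1 had 4.89, 6.70, and 7.97 CPM against 0.421, 1.48, and 2.75 CPM (2.28 ± 0.34). The agreement of POU3F1 was lost without LCDM (EPS) replicate 3 or TL2i replicate 1 or 3, with a weakest pair of 1.33 to 1.40.

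Of the progenitor genes that did not agree, SOX2 and SOX1 were, among the 5 protocols, high in LCDM (EPS). Others went the other way: LHX2, ZIC1, ZIC4, and ZIC5 were higher than each of TL2i, 4i/L/b, and NHSM-v in t2iLGöY but not in LCDM (EPS). SOX2, kept in both pluripotent and neural progenitor cells, was at 317 to 332 CPM in LCDM (EPS) and 99.2 to 117 CPM in t2iLGöY, against 72.6 to 108 CPM on the other side. Outside the comparison SOX2 reached 382 to 409.6 CPM in E-NHSM, above LCDM (EPS), and 213 to 341 CPM in primed cells. SOX1, a marker of the neural plate, was at 186 to 191 CPM in LCDM (EPS), 10.1 to 17.2 CPM in t2iLGöY, and 5.03 to 43.8 CPM on the other side. Of the 24 progenitor genes, 18 were higher in LCDM (EPS) than in each of TL2i, 4i/L/b, and NHSM-v, against 13.3% of all genes, and 14 were higher in t2iLGöY than in each, against 10.1%.

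Most members of the Notch pathway did not agree. Of 19 genes, 5 agreed as higher (26.3% against 6.13% of all genes) and 1 as lower (5.26% against 6.66%), with a median contrast of 0.38. The contrast itself called 8 members higher and 7 lower. DLL1, a ligand on newborn neurons, had 77.6, 161, and 245 CPM against 16.4, 26.4, and 30.8 CPM (2.60 ± 0.09). DLL3, an inhibitory ligand, had 28.3, 48.5, and 68.7 CPM against 0.526, 8.01, and 12.3 CPM (3.17 ± 0.15). HES4, a HES repressor, had 34.5, 70.4, and 93.0 CPM against 7.43, 10.5, and 17.9 CPM (2.49 ± 0.10). The ranges of the sides did not overlap for these 3 genes. HES6, which opposes HES repressors, was at 44.9 to 143 CPM against 8.20 to 39.2 CPM, and NRARP, a feedback inhibitor, at 4.07 to 13.9 CPM against 0.869 to 2.61 CPM. The receptor NOTCH2 was at 168 to 176 CPM in LCDM (EPS), 453 to 512 CPM in t2iLGöY, and 520.4 to 763 CPM on the other side (-1.23 ± 0.05). Agreement was lost for HES6 without NHSM-v replicate 3 (weakest pair 0.29), for NRARP without t2iLGöY replicate 3 (0.80), and for NOTCH2 without TL2i replicate 2 (-0.17).

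Neural crest genes split within each side, and 4 of 21 agreed as higher (19% against 6.13% of all genes) and 2 as lower (9.52% against 6.66%). TFAP2B, a factor of the crest and of some neurons, had 258, 283, and 324 CPM against 31.5, 66.8, and 82.4 CPM (2.36 ± 0.05). TFAP2A, its relative, had 108, 164, and 185 CPM against 7.05, 20.99, and 89.6 CPM (2.69 ± 0.09). B3GAT1, the enzyme that makes the HNK-1 epitope, had 23.5, 33.8, and 54.8 CPM against 2.40, 3.32, and 7.36 CPM (3.14 ± 0.14). B3GAT1 was also at 16.9 to 36.5 CPM in primed cells and 19.5 to 28.05 CPM in E-NHSM. TFAP2B and TFAP2A, in contrast, reached no more than 3.45 and 6.33 CPM in primed cells. Unlike TFAP2B, TFAP2A, and B3GAT1, SOX10, a defining factor of migrating crest, did not agree. SOX10 was at 2.11 to 5.31 CPM in LCDM (EPS), 102 to 241 CPM in t2iLGöY, 97.9 to 158 CPM in TL2i, 29.5 to 43.1 CPM in 4i/L/b, and 0.359 to 0.689 CPM in NHSM-v. MITF, a pigment cell factor, was at 103 to 223 CPM in t2iLGöY but only at 8.54 to 9.06 CPM in LCDM (EPS), just above the 3.96 to 6.10 CPM of the other side. Agreement of MITF was lost without LCDM (EPS) replicate 1 or 3 or 4i/L/b replicate 1 or 2 (weakest pair 0.62 to 0.66). CDH6, a cadherin of the early crest, agreed as lower, at 24.0 to 27.7 CPM in LCDM (EPS), 483 to 494 CPM in t2iLGöY, and 715 to 1551 CPM on the other side (-3.27 ± 0.05). MSX2, a crest and BMP-induced factor, also agreed as lower, at 2.82 to 11.5 CPM against 12.8 to 55.6 CPM, and lost agreement without t2iLGöY replicate 2 (weakest pair -0.44) or 4i/L/b replicate 1 or 2 (both -0.57).

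Of 18 anterior patterning genes, 2 agreed as higher (11.1% against 6.13% of all genes). LMX1B, a midbrain and hindbrain factor, had 81.3, 131, and 185 CPM against 11.1, 26.6, and 29.7 CPM (2.52 ± 0.07). OTX1, a forebrain and midbrain factor, was at 94.1 to 133 CPM in t2iLGöY and 1.17 to 3.61 CPM in LCDM (EPS), and all 4i/L/b and NHSM-v libraries were at the floor. It was at least 365-fold higher in t2iLGöY and 8.01-fold higher in LCDM (EPS) than in 4i/L/b. OTX2, its relative, did not agree, with 258 to 333 CPM in t2iLGöY, 13.7 to 19.8 CPM in LCDM (EPS), and 139 to 164 CPM in NHSM-v. Of 29 posterior HOX and CDX genes, 0 agreed as higher and 1 as lower (3.45% against 6.66% of all genes). This was EGR2, a hindbrain factor that growth factor signals also induce, at 0.0462 to 1.73 CPM against 4.82 to 74.9 CPM (-5.10 ± 0.22).

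The leading lower genes were chosen in the same way, and those of a list are described with it. PLAU, the urokinase that activates plasminogen, had 2.09, 2.73, and 3.24 CPM against 40.1, 110.0, and 445 CPM (-5.57 ± 0.10). THBS1, a matrix glycoprotein, had 156, 209, and 224 CPM against 1704, 3283, and 9856 CPM (-4.28 ± 0.08). TFPI, an inhibitor of tissue factor, had 0.850, 3.07, and 5.30 CPM against 32.1, 45.5, and 68.2 CPM (-3.82 ± 0.21). No range of the sides overlapped, and the PLAU level was lowest in TL2i, intermediate in NHSM-v, and highest in 4i/L/b among the other protocols. F2RL1, a protease-activated receptor, had 0.679, 1.01, and 2.56 CPM against 13.0, 39.2, and 110 CPM (-5.12 ± 0.20). TNFRSF12A, the receptor of TWEAK, had 3.19, 4.89, and 6.90 CPM against 40.1, 152, and 207 CPM (-4.47 ± 0.12).

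Of 21 contractile and YAP target genes, 15 agreed as lower (71.4% against 6.66% of all genes) and 0 as higher, and the median contrast was -2.47. This list, like the neuronal one, was chosen with earlier results of these data known. The sides were selected on mesenchymal genes of the same libraries, so the share is a description and no independent evidence. ANKRD1, a cardiac and stretch-responsive YAP target, had 0 counts in all 3 t2iLGöY libraries and at most 0.646 CPM in LCDM (EPS), against 69.1 to 114 CPM in TL2i, 354 to 379 CPM in 4i/L/b, and 17.1 to 34.3 CPM in NHSM-v. It was at least 438-fold higher in TL2i, 1774-fold in 4i/L/b, and 124-fold in NHSM-v than in t2iLGöY. CYR61, a matricellular YAP target also named CCN1, had 15.9, 29.8, and 41.0 CPM against 337, 820, and 1008 CPM (-4.50 ± 0.10). CTGF, its relative, had 90.8, 118, and 132 CPM against 361, 2062, and 3506 CPM (-3.57 ± 0.08). All these targets were lower with no overlap, whereas YAP1 itself did not differ in the same way, at 264, 287, and 355 CPM against 271, 308, and 355 CPM (-0.06 ± 0.05). CNN1, a smooth muscle calponin, had 0.611, 1.54, and 2.88 CPM against 77.2, 98.6, and 242 CPM (-6.22 ± 0.14). ACTA2, smooth muscle actin, was at 12.9 to 17.8 CPM in LCDM (EPS), 47.8 to 67.5 CPM in t2iLGöY, and 375 to 1482 CPM on the other side (-4.58 ± 0.08). TAGLN, an actin-binding protein, was at 63.1 to 69.9 CPM in LCDM (EPS), 224 to 311 CPM in t2iLGöY, and 932 to 3024 CPM on the other side (-3.68 ± 0.06). In both, t2iLGöY lay between LCDM (EPS) and the other side. AXL, a receptor tyrosine kinase and YAP target, had 14.0, 25.1, and 38.0 CPM against 130.2, 258, and 376 CPM (-3.27 ± 0.07).

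The mesenchymal list was 9 of 31 lower (29% against 6.66% of all genes) and 0 higher, with a median contrast of -1.90. The sides were selected on such genes, so its count is no independent evidence of its direction. Of these 31 genes, 21 were lower in LCDM (EPS) than in each of TL2i, 4i/L/b, and NHSM-v, against 13.7% of all genes, but 10 were lower in t2iLGöY than in each, against 11.2%. Most of the agreeing members named here encode matrix proteins, but the matrix genes COL1A1, COL5A2, FBN1, SPARC, and LOX did not agree. FN1, fibronectin, had 420, 724, and 847 CPM against 4823, 8782, and 10025 CPM (-3.65 ± 0.11). COL6A3, a collagen VI chain, was at 35.3 to 55.6 CPM in LCDM (EPS), 0.335 to 4.18 CPM in t2iLGöY, and 340.5 to 1414 CPM on the other side (-6.29 ± 0.18). COL6A1 and COL6A2 encode the partner chains. COL6A1 had 20.7, 58.6, and 87.4 CPM against 281, 570.1, and 1725 CPM (-3.77 ± 0.11), and COL6A2 had 30.0, 48.2, and 72.2 CPM against 256, 419.7, and 1007 CPM (-3.45 ± 0.08). All 3 chains of collagen VI were lower in t2iLGöY than in LCDM (EPS). TGFBI, a TGF-β-induced matrix protein, had 1.89, 4.88, and 9.51 CPM against 34.4, 89.99, and 141 CPM (-4.02 ± 0.21). COL1A2 had 105, 211, and 343 CPM against 1009, 1258, and 3729 CPM (-3.02 ± 0.10), and COL3A1 had 72.0, 131, and 158 CPM against 363, 528, and 1122 CPM (-2.29 ± 0.11). COL1A1, the partner of COL1A2 in collagen I, did not agree. It was at 557 to 686 CPM in LCDM (EPS), 2944 to 3460 CPM in t2iLGöY, and 1481 to 3303 CPM in TL2i, and it was called the other way in t2iLGöY against TL2i, by 0.37 ± 0.16 on the log2 scale. LUM, a collagen-binding proteoglycan, had 0 counts in all t2iLGöY libraries, 2.02 to 4.57 CPM in LCDM (EPS), and 8.31 to 62.6 CPM on the other side.

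Receptors and transcription factors of the list moved less or in other ways. PDGFRA, a fibroblast receptor, had 3.12, 5.41, and 6.27 CPM against 3.14, 18.0, and 31.6 CPM, with overlap through NHSM-v. PDGFRB, its relative, was at 4.57 to 5.63 CPM in LCDM (EPS), while t2iLGöY, at 39.0 to 50.4 CPM, overlapped the 35.0 to 75.1 CPM of the other side. TWIST1 had 6.48, 11.6, and 13.2 CPM against 4.54, 8.25, and 12.4 CPM, and ZEB2 had 224, 254, and 363 CPM against 118, 136, and 237 CPM. Neither factor was lower in LCDM (EPS) and t2iLGöY.

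**Figure D3:**
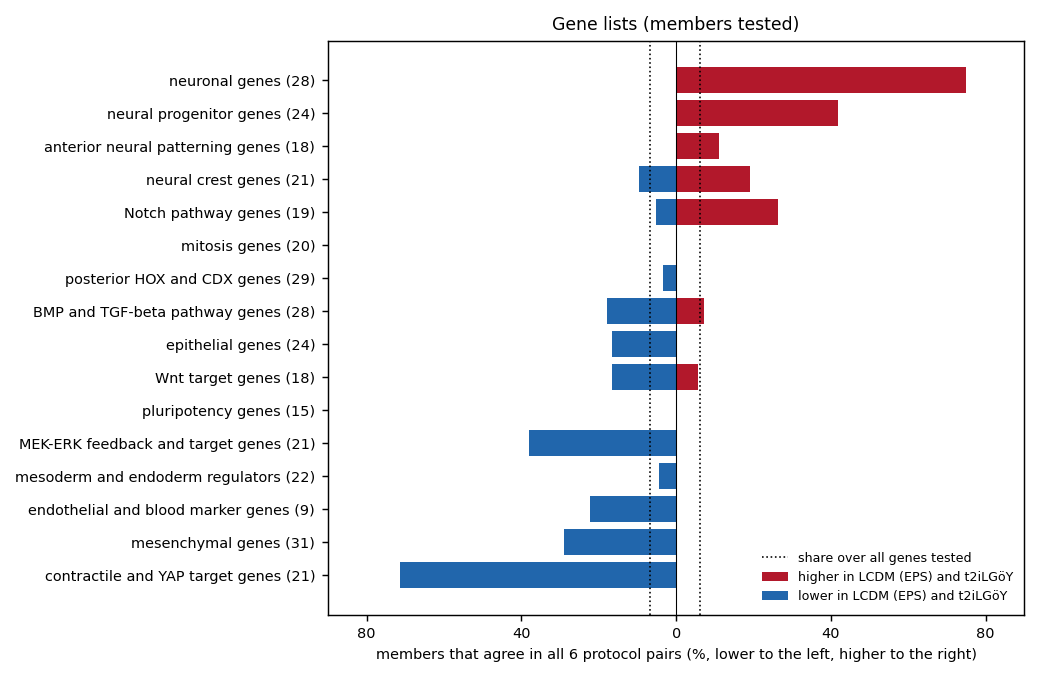
Share of each gene list that agreed in all 6 protocol pairs (horizontal axis, percent), to the right as higher and to the left as lower in LCDM (EPS) and t2iLGöY, with the number of members tested in parentheses and dotted lines at the shares over all genes, 6.13% and 6.66%. Neuronal genes reach 75% as higher and contractile and YAP target genes 71.4% as lower; mitosis and pluripotency genes have no agreeing member.

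Of 24 epithelial genes, 4 agreed as lower (16.7% against 6.66% of all genes) and 0 as higher. The median contrast was -1.06, or -1.46 with genes at the floor set to their bound. CLDN6, a claudin of pluripotent and early epithelial cells, had 4.76, 7.22, and 13.5 CPM against 108, 157, and 372 CPM (-4.49 ± 0.13). KRT8, a keratin of simple epithelia, had 4.78, 8.62, and 12.4 CPM against 54.9, 81.6, and 293 CPM (-3.60 ± 0.13). Both were lower without overlap, although CDH1 and EPCAM did not agree. KRT7 had 0 counts in all 6 libraries and at most 3.98 CPM in the 9, and SPINT1, a protease inhibitor, was at 0 to 0.679 CPM against 0 to 37.1 CPM. Agreement was lost for KRT7 without 4i/L/b replicate 3 or t2iLGöY replicate 1 or 2 (weakest pair from -5.27 to -2.82), and for SPINT1 without any 1 LCDM (EPS) library or NHSM-v replicate 1 or 3 (from -2.02 to -1.27).

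Among the 21 MEK-ERK feedback and target genes, 8 agreed as lower (38.1% against 6.66% of all genes) and 0 as higher. The median contrast was -1.74. DUSP5, an ERK phosphatase, had 0.679, 1.65, and 3.24 CPM against 18.0, 41.7, and 98.6 CPM (-4.56 ± 0.18). DUSP6, another ERK phosphatase, was at 15.01 to 16.4 CPM in LCDM (EPS), 12.8 to 18.9 CPM in t2iLGöY, 45.4 to 55.2 CPM in TL2i, 299 to 349 CPM in 4i/L/b, and 190.0 to 197 CPM in NHSM-v (-3.24 ± 0.08). TL2i was thus nearest to LCDM (EPS) and t2iLGöY for this gene. FOSL1, an AP-1 subunit, had 0, 0.139, and 0.945 CPM against 5.56, 9.38, and 49.9 CPM (-5.43 ± 0.42). EPHA2, an ephrin receptor, had 19.5, 37.7, and 58.3 CPM against 144, 225, and 587 CPM (-2.94 ± 0.09). DUSP4 had 21.3, 33.8, and 42.8 CPM against 59.5, 153, and 199 CPM (-1.89 ± 0.07), and PHLDA1 had 116, 144, and 192 CPM against 226, 473, and 802 CPM (-1.58 ± 0.06). For all of these the lowest of the 9 values was a TL2i or NHSM-v library. Without TL2i, when only 4 pairs had to agree, 15 of the 21 genes agreed as lower and so did 1387 of all genes. With a minimum log2 fold change of 1 there were 4, and 361 of all genes agreed as lower. With all 27 libraries in 1 fit 5 agreed, and the count over all genes in that fit is not given.

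Wnt targets and members of the BMP and TGF-β pathway were mainly lower in the contrast, although members agreed in both directions. Of 18 Wnt targets, 1 agreed as higher (5.56% against 6.13% of all genes) and 3 as lower (16.7% against 6.66%). The contrast itself called 2 members higher and 13 lower, against 29.5% and 29.6% of all genes. The median contrast was -1.57, or -1.32 with genes at the floor set to their bound. FZD10, a Wnt receptor, had 152, 228, and 270.3 CPM against 36.4, 65.3, and 98.5 CPM (1.73 ± 0.06). NKD1, a feedback inhibitor of Wnt, had 11.6, 18.2, and 21.7 CPM against 81.8, 107, and 127 CPM (-2.57 ± 0.08). TNFRSF19 was at 20.5 to 22.4 CPM in LCDM (EPS), 162 to 189.9 CPM in t2iLGöY, and 273 to 506 CPM on the other side (-2.55 ± 0.06). NOTUM, a secreted Wnt inhibitor, was at the floor in all LCDM (EPS) libraries, at least 81.0-fold lower than in TL2i. The share of agreeing higher genes, from 1 receptor, was near that of all genes, and the 3 members that agreed as lower were feedback inhibitors or other targets.

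Of 28 BMP and TGF-β pathway genes, 2 agreed as higher (7.14% against 6.13% of all genes) and 5 as lower (17.9% against 6.66%). The median contrast was -1.05, and the share of agreeing higher genes was near that of all genes. The contrast itself called 7 members higher and 18 lower, against 29.5% and 29.6% of all genes. SMAD9, a BMP-responsive SMAD, had 16.0, 24.7, and 28.5 CPM against 4.84, 5.91, and 10.7 CPM (1.85 ± 0.14), and ID2, a BMP target that restrains differentiation, had 94.9, 118, and 141 CPM against 37.1, 62.9, and 93.6 CPM (0.99 ± 0.06). Agreement of ID2 was lost without TL2i replicate 2 or 3 or t2iLGöY replicate 1 or 3 (weakest pair 0.22 to 0.27). Among the lower ones, the ligand TGFB2 had 21.3, 25.1, and 29.7 CPM against 42.2, 299, and 459 CPM (-3.00 ± 0.10). GREM1, a secreted BMP antagonist, had 19.1, 25.8, and 38.2 CPM against 58.4, 112, and 139.6 CPM (-1.81 ± 0.09). SKIL, a TGF-β-induced repressor of SMADs, had 66.1, 84.2, and 114 CPM against 150.1, 179, and 249 CPM (-1.12 ± 0.07). BMP5, a ligand, had 24.1, 33.4, and 39.0 CPM against 47.8, 92.3, and 183 CPM (-1.50 ± 0.07) and 0 counts in all primed libraries.

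Few markers of other lineages agreed in all 6 pairs, which leaves out markers high in only some protocols of a side. Of 22 mesoderm and endoderm regulators, 1 agreed as lower (4.55% against 6.66% of all genes). This was FOXC2, at the floor in t2iLGöY and at 1.051 to 4.84 CPM on the other side. The list's median contrast was -1.80, or -1.68 with genes at the floor set to their bound. Its summed CPM was 133 to 203 in TL2i, 71.9 to 86.8 in 4i/L/b, and 34.4 to 38.1 in NHSM-v, against 12.6 to 41.0 in LCDM (EPS) and t2iLGöY. Of 9 endothelial and blood markers tested, 2 agreed as lower (22.2% against 6.66% of all genes). TEK, the angiopoietin receptor, had 1.33, 2.41, and 3.28 CPM against 18.0, 26.7, and 40.4 CPM, and RUNX1, a blood and mesenchymal factor, had 0.469, 2.74, and 8.65 CPM against 8.20, 70.5, and 299.8 CPM. Neither the 15 pluripotency genes nor the 20 mitosis genes had an agreeing member, in either direction, and the median contrast was -1.59 and 0.11. Whether feeder cells contributed RNA was not tested.

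LCDM (EPS) and t2iLGöY differed from each other in many genes, a comparison that the choice of sides did not use. The p-values here measure the spread among libraries of 1 protocol, which may be technical, and all cells came from 1 clone. By edgeR's quasi-likelihood test with Benjamini-Hochberg adjustment, 2849 genes were higher in LCDM (EPS) (20.0% of genes tested) and 2516 were lower (17.7%). Among the 873 agreeing higher genes, 265 were higher and 81 lower in LCDM (EPS) than in t2iLGöY. Among the 948 agreeing lower genes, 104 were higher and 315 lower. Of the 24 neural progenitor genes, 16 were higher in LCDM (EPS) and 6 lower, and of the 28 neuronal genes, 12 were higher and 5 lower. POU3F3 was higher in LCDM (EPS) by 3.39 ± 0.20 on the log2 scale (adjusted p = 3.4e-13, edgeR), and SOX1 by 3.86 ± 0.16 (adjusted p = 3.1e-16, edgeR). Neural crest genes lay the other way, with 2 of 21 higher and 15 lower in LCDM (EPS), and anterior genes with 3 of 18 higher and 10 lower. SOX10 was lower in LCDM (EPS) by a log2 value of -5.45 ± 0.29 (adjusted p = 3.9e-14, edgeR) and OTX2 by -4.17 ± 0.13 (adjusted p = 7e-19, edgeR). Of the 31 mesenchymal genes, 7 were higher and 19 lower in LCDM (EPS), and of the 21 contractile and YAP target genes, 2 were higher and 16 lower. COL6A3 was an exception and was higher in LCDM (EPS) by 4.29 ± 0.31 (adjusted p = 1.5e-11, edgeR). All 12 mitosis genes of 20 that differed were higher in LCDM (EPS). For other genes no difference was called. For TUBB3 the difference was 0.04 ± 0.07 (adjusted p = 0.71, edgeR), and for DUSP6 it was 0.04 ± 0.12 (adjusted p = 0.82, edgeR).

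The other 3 protocols also differed among themselves. An F test over TL2i, 4i/L/b, and NHSM-v, which the contrast did not use, called 8401 genes by edgeR's quasi-likelihood test (59.0%). It called 497 of the agreeing higher genes (56.9%) and 669 of the agreeing lower genes (70.6%). It called all 21 MEK-ERK genes, 20 of 21 contractile and YAP target genes, and 29 of 31 mesenchymal genes. The level of the lower genes, in particular, was not the same in the 3 protocols. CTGF, chosen after its values were seen, was at 361 to 442 CPM in TL2i and 2969 to 3506 CPM in 4i/L/b (adjusted p = 2.5e-17 over the 3 protocols, edgeR). ACTA2 was at 375 to 383 CPM in TL2i and 1399 to 1482 CPM in NHSM-v (adjusted p = 1.2e-14, edgeR). CHGB and ELAVL4, in contrast, were not called, with an adjusted p of 0.13 and 0.35 by edgeR.

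The level of each list in each library is given as the median log2 CPM of its members. Neuronal genes lay at 6.81 to 6.97 in LCDM (EPS), 6.02 to 6.36 in t2iLGöY, 2.55 to 3.39 in the 9 other libraries, and -2.26 to 0.57 in primed cells. Neural progenitor genes lay at 7.57 to 7.68 in LCDM (EPS) and 6.65 to 6.79 in t2iLGöY, against 5.81 to 6.23 in the 9 libraries and 1.38 to 2.29 in primed cells. The 9 libraries were thus above primed cells in both neural lists. Contractile and YAP target genes lay at 5.08 to 5.36 in LCDM (EPS), 6.08 to 6.25 in t2iLGöY, 7.20 to 8.19 in the 9 libraries, and 7.08 to 7.49 in primed cells. MEK-ERK genes lay at 3.86 to 4.25 in LCDM (EPS) and t2iLGöY, 4.88 to 5.33 in TL2i, 6.24 to 6.60 in 4i/L/b and NHSM-v, and 6.55 to 7.01 in primed cells. Mesenchymal genes lay at 5.15 to 5.79 in LCDM (EPS) and t2iLGöY, 5.18 to 5.97 in primed cells, and 6.28 to 7.89 in the 9 libraries. Their summed CPM did not lie as close, with 12632 to 13587 in t2iLGöY against 3908 to 6796 in primed cells. The 2 protocols outside the comparison stood at different places. E-NHSM resembled primed cells in its neuronal list, at -0.54 to 0.13, while TL-CDK8i had the highest contractile and YAP target list, at 8.98 to 9.04. Mesenchymal genes were lowest in E-NHSM, at 3.60 to 3.75. Its MEK-ERK genes lay at 4.485 to 4.63. The summed CPM of its MEK-ERK list, 733.2 to 776.0, was below the 879.0 to 1054.0 of LCDM (EPS) and t2iLGöY. Low levels of these 2 lists were thus not particular to LCDM (EPS) and t2iLGöY. Among the 873 higher genes, the E-NHSM mean reached the lower of the LCDM (EPS) and t2iLGöY means in 167, the TL-CDK8i mean in 67, and the primed mean in 159. Among the 948 lower genes, E-NHSM was at or below the higher of the LCDM (EPS) and t2iLGöY means in 372 genes, TL-CDK8i in 115, and primed cells in 249. The shares over all genes were not counted, so these counts do not measure likeness to either side.

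**Figure D4:**
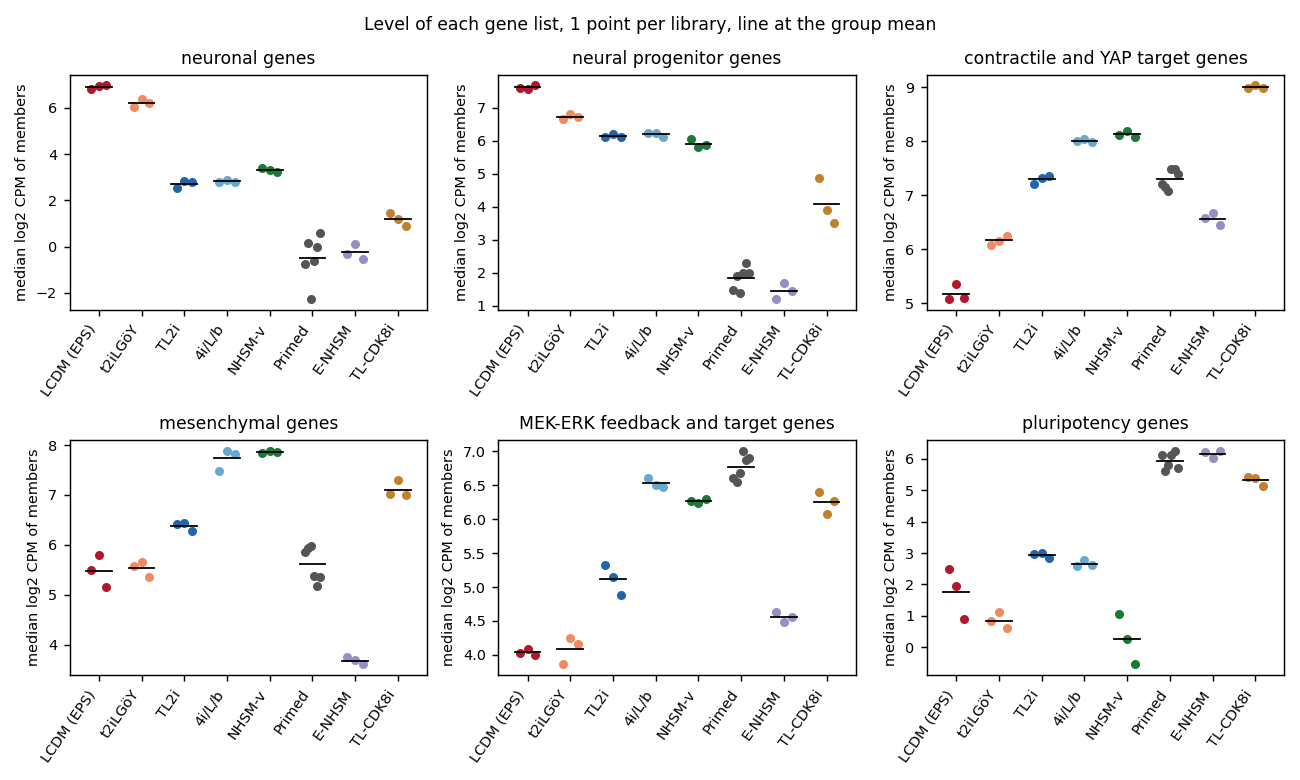
Median log2 CPM of the members of 6 gene lists (vertical axes, own scale in each panel) in every library of the 5 protocols, of primed cells, and of E-NHSM and TL-CDK8i, with 1 point per library and a line at the group mean. LCDM (EPS) and t2iLGöY are highest for neuronal genes, at 6.02 to 6.97. By this median they are lowest for contractile and YAP target genes and for MEK-ERK genes. E-NHSM is lowest for mesenchymal genes, at 3.60 to 3.75. Pluripotency genes are below primed cells in all 5 protocols.

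Each side was then set against the 6 primed libraries. The 2 comparisons share these libraries, so their values are set side by side only. The agreeing genes, and the sides themselves, were chosen on the same LCDM (EPS), t2iLGöY, TL2i, 4i/L/b, and NHSM-v libraries, so part of each excess below is built in by that choice, and the values are descriptions with no p-value. Of 14475 genes tested, 33.3% were higher and 33.9% lower in LCDM (EPS) and t2iLGöY, and 34.9% were higher and 31.4% lower in TL2i, 4i/L/b, and NHSM-v (edgeR's quasi-likelihood test, Benjamini-Hochberg). Of the 873 agreeing higher genes, 673 were higher (77.1%) and 76 lower (8.71%) in LCDM (EPS) and t2iLGöY than in primed cells, with a median of 1.37. On the other side, 366 of them were higher (41.9%) and 297 lower (34%), with a median of 0.13. Of the 948 agreeing lower genes, 122 were higher (12.9%) and 657 lower (69.3%) in LCDM (EPS) and t2iLGöY, with a median of -0.84, and 536 were higher (56.5%) and 219 lower (23.1%) on the other side, with a median of 0.46.

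Leading genes stood at different places relative to primed cells. Of the 11 leading higher genes, 10 were called above the primed level in LCDM (EPS) and t2iLGöY and GNAO1 below it, while on the other side 5 were above, 5 below, and EBF3 was called in neither direction. DCX was at 0 to 4.51 CPM in primed cells, and lay above this level by 8.12 ± 0.22 (log2, SE) in LCDM (EPS) and t2iLGöY and by 5.03 ± 0.21 on the other side. HES5, NEUROD1, and INSM1 had 0 counts in all 6 primed libraries. CHGB was at 24.4 to 36.6 CPM in primed cells, and its log2 difference from them was 0.81 ± 0.14 in LCDM (EPS) and t2iLGöY and -3.21 ± 0.14 on the other side. GNAO1 was at 120.0 to 170.0 CPM in primed cells, with differences of -1.79 ± 0.13 and -5.19 ± 0.14. A gene higher in LCDM (EPS) and t2iLGöY than on the other side could therefore be below its primed level on both.

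Of the 11 leading lower genes, 10 were called below the primed level in LCDM (EPS) and t2iLGöY and TFPI above it, while on the other side 5 were above, 4 below, and CNN1 and TNFRSF12A were called in neither direction. CNN1 was at 91.1 to 123 CPM in primed cells, and its log2 difference from them was -6.06 ± 0.16 in LCDM (EPS) and t2iLGöY and 0.16 ± 0.11 on the other side. DUSP6 was at 521 to 685 CPM, with differences of -5.17 ± 0.09 and -1.93 ± 0.07, and was thus below the primed level on both sides. COL6A3 was at 14.8 to 42.6 CPM, with differences of -1.53 ± 0.25 and 4.75 ± 0.22. COL6A1 had differences of 0.18 ± 0.15 and 3.94 ± 0.15, and ACTA2 of -0.50 ± 0.10 and 4.08 ± 0.10. These 3 genes lay far above the primed level on the other side, where CNN1 did not.

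**Figure D5:**
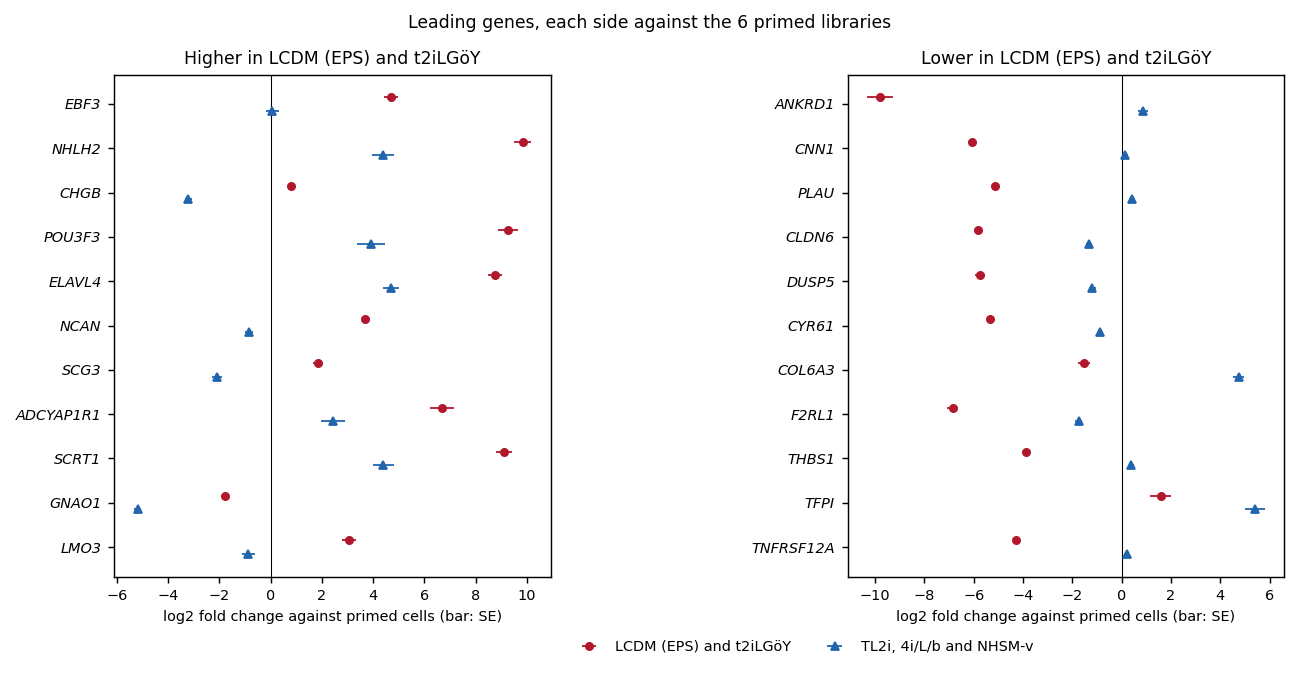
Log2 fold change of LCDM (EPS) and t2iLGöY (circles) and of TL2i, 4i/L/b, and NHSM-v (triangles) against the 6 primed libraries for 11 leading higher (left) and 11 leading lower genes (right), with bars of 1 SE. GNAO1 is below 0 on both sides, SCRT1 above 0 on both, and COL6A3 below 0 at -1.53 on one side and above 0 at 4.75 on the other; values of genes near 0 counts in primed cells or in one side depend on the prior count.

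The lists were counted in the same 2 comparisons, to be read against the 33.3% of all genes above and 33.9% below the primed level in LCDM (EPS) and t2iLGöY, and the 34.9% and 31.4% on the other side. Of the 28 neuronal genes, 27 were above and 1 below in LCDM (EPS) and t2iLGöY, and 22 were above and 3 below on the other side. Of the 24 progenitor genes, 18 were above and 4 below, and on the other side 15 and 5. Of the 21 contractile and YAP target genes, 1 was above and 18 below, and on the other side 11 and 6. Of the 31 mesenchymal genes, 12 were above and 10 below, shares near those of all genes, and on the other side 25 and 4. The sides were chosen on the levels of such genes, so part of the larger count on the other side is built in. The primed libraries were not used in that choice. Of the 21 MEK-ERK genes, 2 were above and 18 below, and on the other side 4 and 14. Of the 19 pluripotency genes tested, 0 were above and 17 below in LCDM (EPS) and t2iLGöY, and 2 and 15 on the other side. Of the 20 mitosis genes, 0 were above and 15 below, and on the other side 1 and 18.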

How the data were processed

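Bulk RNA-seq of 27 libraries was used, 15 of them in the comparison. Per the labels, the authors made directional mRNA libraries from RNA of cell pellets. They deposited raw counts per gene symbol (17967 symbols), 1 column per library, not normalized. The submitters' processing notes name bcl2fastq, cutadapt, HISAT2, and HTSeq without versions, and the genome build and annotation are not given in the sources used here. Reads shared between paralogs or pseudogenes could be dropped or split at counting, and the use of strand in counting is not stated. All 27 columns were assigned by name, and 0 were left over. The primed columns carry the letters J and K, which were not assigned to the sets of the labels.

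Libraries were scaled by TMM and genes filtered by filterByExpr before the quasi-likelihood test of edgeR (version 4.0.16, on limma 3.58.1 and R 4.3.3) with Benjamini-Hochberg adjustment. The threshold was 0.05. There was 1 fit of 15 libraries without a block and, for primed cells, 1 fit of 21. CPM values were scaled over all 27 libraries. Each SE was the absolute log2 fold change divided by the square root of the quasi-likelihood F statistic. It therefore restates that test and is no separate estimate. Total counts set the precision, and a group with 3 counts or fewer in each library was at the floor, with folds given as bounds that cover counting error only. The prior count for log2 CPM was 2. The code was tested on simulated counts. The replicate numbers did not pair the libraries. Over 30 same-number pairs the correlation of deviations was -0.0332 to 0.0715.

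The protocols, the 16 gene lists (377 of 387 symbols found), and the rules were chosen with earlier results of these data known. Named genes were, among agreeing genes whose sides did not overlap and whose log2 CPM averaged 3 or more, the 12 per direction with the largest weakest pair. Of these, 1 per direction is not reported here. Added to them were up to 6 agreeing members per list and direction, 18 defining genes fixed by name, and the genes just inside and just outside the rule. Other list members named (NANOG, TUBB3, SNAP25, NEUROG2, NEUROD1, INSM1, POU4F1, ISL1, LHX2, ZIC1, ZIC4, ZIC5, CTGF, YAP1, LUM, COL5A2, FBN1, SPARC, LOX) were chosen after their values were seen. Alternatives were DESeq2 1.42.0, other scalings and filters, thinned counts, all 27 libraries in 1 fit, pair-only fits, a minimum log2 fold change of 1, a replicate block, and each library or protocol left out in turn. Motifs and sequences were not analysed here.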

Additional observations from a re-analysis of the deposited data

Results flagged for a closer look

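Among 40 named genes tested for a library far from the rest of the 6 primed ones, 4 had one, and chance gives about 1 in 20 such groups. NHLH2 was at 0.808 CPM in primed library K3, where the next highest was 0.111 CPM. POU3F3 was at 0.539 CPM in K3, with 0.111 CPM next. SCRT1 was at 0.353 CPM in K2, with 0.111 CPM next. All 3 rest on a few counts. PAX6 was at 7.87 CPM in K1, and the others lay between 1.89 and 3.44 CPM.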

How the results depend on the processing

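Of 92 values of named genes, 66 kept their direction and their side of the threshold in each of the 36 alternatives that could be computed for them. Leaving out each library in turn gave 1653 to 1792 agreeing genes, 8063 to 8475 in the contrast, 4661 to 5583 between LCDM (EPS) and t2iLGöY, and 7650 to 8948 among the other 3 protocols. A minimum log2 fold change of 1 gave 2784 genes in the contrast (1163 higher, 1621 lower), 663 agreeing genes (302 higher, 361 lower), 6 neural progenitor and 4 MEK-ERK genes, and 1892 genes between LCDM (EPS) and t2iLGöY. With all 27 libraries in 1 fit, 5 MEK-ERK genes agreed, and the count over all genes in that fit is not given. Fewer pairs had to agree when a protocol was left out. Without LCDM (EPS), 2960 genes agreed (1370 higher, 1590 lower). Without t2iLGöY, 4201 agreed (2087 higher, 2114 lower), with 18 neural progenitor and 21 mesenchymal genes. Without TL2i, 18 mesenchymal and 15 MEK-ERK genes agreed as lower, as did 1387 of all genes. Without NHSM-v, 3012 agreed (1522 higher, 1490 lower). The contrast turned without LCDM (EPS) for VIM (0.22), SNAI2 (0.41), SOX1 (-0.22), and POU5F1 (-0.054). It turned without t2iLGöY for SOX10 (-1.67) and OTX2 (-1.40), without 4i/L/b for VIM (0.033), and without NHSM-v for VIM (0.25), SOX10 (-1.30), and POU5F1 (-0.34). The cause was not tested. With the replicate block, 1810 genes agreed (867 higher, 943 lower) and 8309 passed in the contrast. Of the 15 libraries, 5 were closest to their own number, so the numbers do not pair the samples. The block was not run for the comparisons with primed cells, whose columns carry each number under both J and K and could not be matched to labelled replicates. Counts near the floor limit HES5, OTX1, KRT7, FOXC2, NOTUM, and ANKRD1.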
